A study of Rattus norvegicus with 24 samples.

Results

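The nuclear genes for mitochondrial ribosomal proteins were described in the hippocampus of female rats. They were chosen by name, as the gene symbols that begin with Mrpl or Mrps followed by a number, and 74 of the 20318 features in the deposited table met this rule, 44 named for the large subunit and 30 for the small subunit. The 24 libraries formed 4 groups. In the Prevention group (n = 5) the ovaries were removed at 6 months and E2, the estrogen estradiol, was then given for 5 weeks. In the Treatment group (n = 5) ovary removal at 6 months was followed by vehicle for 3 weeks and then by E2 for 2 weeks. The OVX group (n = 7) had its ovaries removed at 6 months and received vehicle for 7 weeks, and the SHAM group (n = 7) is labelled with the same age and 7 weeks of vehicle, without ovary removal. The labelled times of both E2 groups add up to 5 weeks, against 7 weeks in OVX and SHAM, so E2 and total time cannot be told apart. The labels name no strain, dose or route. The labels number the libraries without saying that each came from its own animal, so p-values measure the spread between these libraries, which may be technical.

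Mitochondria keep a small genome of their own, and the proteins it encodes, all of them core subunits of the respiratory chain and ATP synthase, are made on a dedicated ribosome inside the organelle. The RNAs of this mitoribosome are transcribed from mitochondrial DNA, whereas every one of its proteins is encoded in the nucleus, made on cytosolic ribosomes and imported. The small subunit decodes the messenger RNA, and the large subunit joins the amino acids and passes the chain through an exit tunnel towards the inner membrane. Many members descend from bacterial ribosomal proteins and others were added during the evolution of mitochondria. Neurons depend on respiration, and inherited defects in several of these genes in humans cause disease of brain, heart or muscle.

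Promoter sequences are shown first. The members are scattered over the genome (19 chromosomes), and they ran high or low together in the same libraries, as given further on. The part of promoters in this was not tested. RefSeq listed 73 of the 74 symbols, and its table for the rat assembly GRCr8 held a promoter window, 250 bases before to 50 bases after the start of transcription, for 58 of them. Motifs of 3 factors known in mammals to act on nuclear genes for mitochondrial proteins were searched on both strands: GCGCA, any base and GCGC for NRF1, CCGGAAG for the ETS family that includes GABPA, and AAGATGGC for YY1. Windows of 4 members that hold them are printed 5′ to 3′ on the strand of the gene, with the matches in capitals, on either strand.
Mrpl58, chr10:101145092-101145391, plus strand: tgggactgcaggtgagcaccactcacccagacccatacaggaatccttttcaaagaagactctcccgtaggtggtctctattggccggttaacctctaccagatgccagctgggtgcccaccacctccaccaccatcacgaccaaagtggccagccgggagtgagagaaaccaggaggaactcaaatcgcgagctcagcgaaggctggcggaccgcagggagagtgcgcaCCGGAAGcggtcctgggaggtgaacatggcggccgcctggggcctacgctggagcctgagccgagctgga
Mrps26, chr3:138222074-138222373, plus strand: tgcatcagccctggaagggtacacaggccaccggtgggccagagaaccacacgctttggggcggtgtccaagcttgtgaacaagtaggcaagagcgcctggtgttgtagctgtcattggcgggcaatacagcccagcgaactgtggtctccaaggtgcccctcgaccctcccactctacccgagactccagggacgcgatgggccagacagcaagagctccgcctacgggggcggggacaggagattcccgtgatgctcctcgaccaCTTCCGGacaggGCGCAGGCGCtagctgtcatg
Mrpl44, chr9:88554800-88555099, plus strand: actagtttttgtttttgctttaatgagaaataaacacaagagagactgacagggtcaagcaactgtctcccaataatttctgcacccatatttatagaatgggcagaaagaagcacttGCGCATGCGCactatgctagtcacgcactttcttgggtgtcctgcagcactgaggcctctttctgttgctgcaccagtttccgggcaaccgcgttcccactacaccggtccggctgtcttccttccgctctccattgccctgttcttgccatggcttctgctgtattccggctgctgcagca
Mrpl46, chr1:142116981-142117280, minus strand: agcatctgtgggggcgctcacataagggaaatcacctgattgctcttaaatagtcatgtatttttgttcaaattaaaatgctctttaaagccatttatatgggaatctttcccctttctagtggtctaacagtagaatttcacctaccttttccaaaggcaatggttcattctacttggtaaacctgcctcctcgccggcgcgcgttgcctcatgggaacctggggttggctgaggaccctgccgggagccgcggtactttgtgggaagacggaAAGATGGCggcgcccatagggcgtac

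Mrpl58, Mrps26, Mrpl44 and Mrpl46 thus carry an ETS match, an ETS and an NRF1 match, an NRF1 match and a YY1 match in that order. At least 1 of the 3 motifs lay in 32 of the 58 windows (55.2%), against 24.1% of the windows of all tested genes and 14.6% of all windows in the table. The ETS motif was in 19 member windows (32.8%, against 14.4% for tested genes), the YY1 motif in 14 (24.1%, against 4.69%) and the NRF1 motif in 9 (15.5%, against 8.27%). The estrogen response element, GGTCA and TGACC with 3 bases between them, was in 0 of the 58 windows, as in 0 of the 12671 windows of tested genes, and 0.0269% of all windows held it. For 18 of the 58 members (31.0%) another gene started within 1000 bases on the opposite strand in the other direction, against 14.3% of tested genes. The pair of Mrpl46 and Mrps11 joins both subunits, with starts 234 bases apart. Motif matches are descriptions of letters and say nothing of binding in these samples.

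The feature LOC257642 divided the libraries into sets of 7 and 17: log2 values were at least 16.8 in the first, with a maximum of 19.7, and at most 15.2 in the second. The 7, called the high set, were all 5 Prevention libraries and Treatment libraries 1 and 2. Their estimated depth, 41.4 to 57.2 M reads, was above the 26.7 to 40.3 M of the low set. Hippocampal identity was checked with 9 markers of hippocampal neurons. All were detected, Prox1 of dentate granule cells at 2035 to 4180 and Neurod6 of pyramidal neurons at 3670 to 7413 normalised counts, while Spink8 reached only 1.16 to 10.2. Tcf7l2, a marker of the thalamus next to the hippocampus, lay at 1573 to 3357 in 5 libraries (Prevention 1 and 4, Treatment 6, OVX 2 and SHAM 5) and at 278 to 773 in the others. The summed thalamic markers (10 of 10 detected, none at 0) ran from 14242 to 35584 in Prevention, 13499 to 28299 in Treatment, 12485 to 28731 in OVX and 13391 to 36659 in SHAM. The summed markers of choroid plexus (10 genes) varied far more. They ran from 5729 to 104759 in Prevention, 4250 to 104322 in Treatment, 4661 to 106452 in OVX and 5279 to 196797 in SHAM. OVX 7 and SHAM 7, named further on, had 52502.5 and 196797. The part of choroid plexus in the values of the members was not tested.

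Values are the authors' DESeq2-normalised counts, and changes are differences on the log2(normalised count + 1) scale. A gene was tested where its mean over the 24 libraries was at least 10, as held for 73 of the 74 members and 16119 features in all. The member left out, Mrps21l, was listed at 0 in 19 libraries and reached 1.25 at most. Among tested members the within-group SD had a median of 0.11 (log2) in either subunit, against 0.15 over all tested genes, and 6 of the 73 exceeded that background. The background was not matched for expression level and includes genes with means as low as 10. The steadiest were Mrpl3, Mrpl51 and Mrpl15 in the large subunit and Mrps22, Mrps23 and Mrps5 in the small one. Mrpl3, a core protein of the large subunit whose human gene is mutated in a mitochondrial cardiomyopathy, had an SD of 0.051, with 1763 ± 48.2 normalised counts in Prevention, 1754 ± 72.5 in Treatment, 1747 ± 44.5 in OVX and 1681 ± 73.9 in SHAM (SD, n = 5, 5, 7 and 7). The widest were Mrpl1, at a mean of only 38.0 normalised counts and an SD of 0.81, and Mrps17 with 0.30. Mrps17 ran from 524 to 628 in Prevention, 403 to 710 in Treatment, 562 to 933 in OVX and 499 to 946 in SHAM, so its groups overlapped widely.

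Members ran high or low together from library to library. For each library the median deviation of the members from their own means over the 24 libraries was taken, and it ran from -0.12 (Treatment 1) to 0.26 (OVX 3) for the large subunit and from -0.15 to 0.26, in those 2 libraries again, for the small subunit. OVX 3 was above the members' own mean in 44 of 44 large and 29 of 29 small subunit genes. It was the highest of all 24 libraries in 55 of the 73 members, against 14.8% of tested genes. Cytosolic ribosomal protein genes (0.24) and nuclear genes of oxidative phosphorylation (0.28) were high in the same library. Treatment 1 was the lowest of the 5 Treatment libraries in 51 members, against 24.6% of tested genes. In OVX 3 the summed markers of neurons in general were 124714 normalised counts, against 88249 to 111397 in the other OVX libraries, and those of astrocytes were 93487, against 101578 to 121799. In the other groups the neuron sum reached 124578 in Treatment 2 and 125111 in SHAM 6. The large subunit medians of those 2 libraries were -0.049 and 0.014. The part of these cell types in the high values of OVX 3 was not tested.

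**Figure D1:**
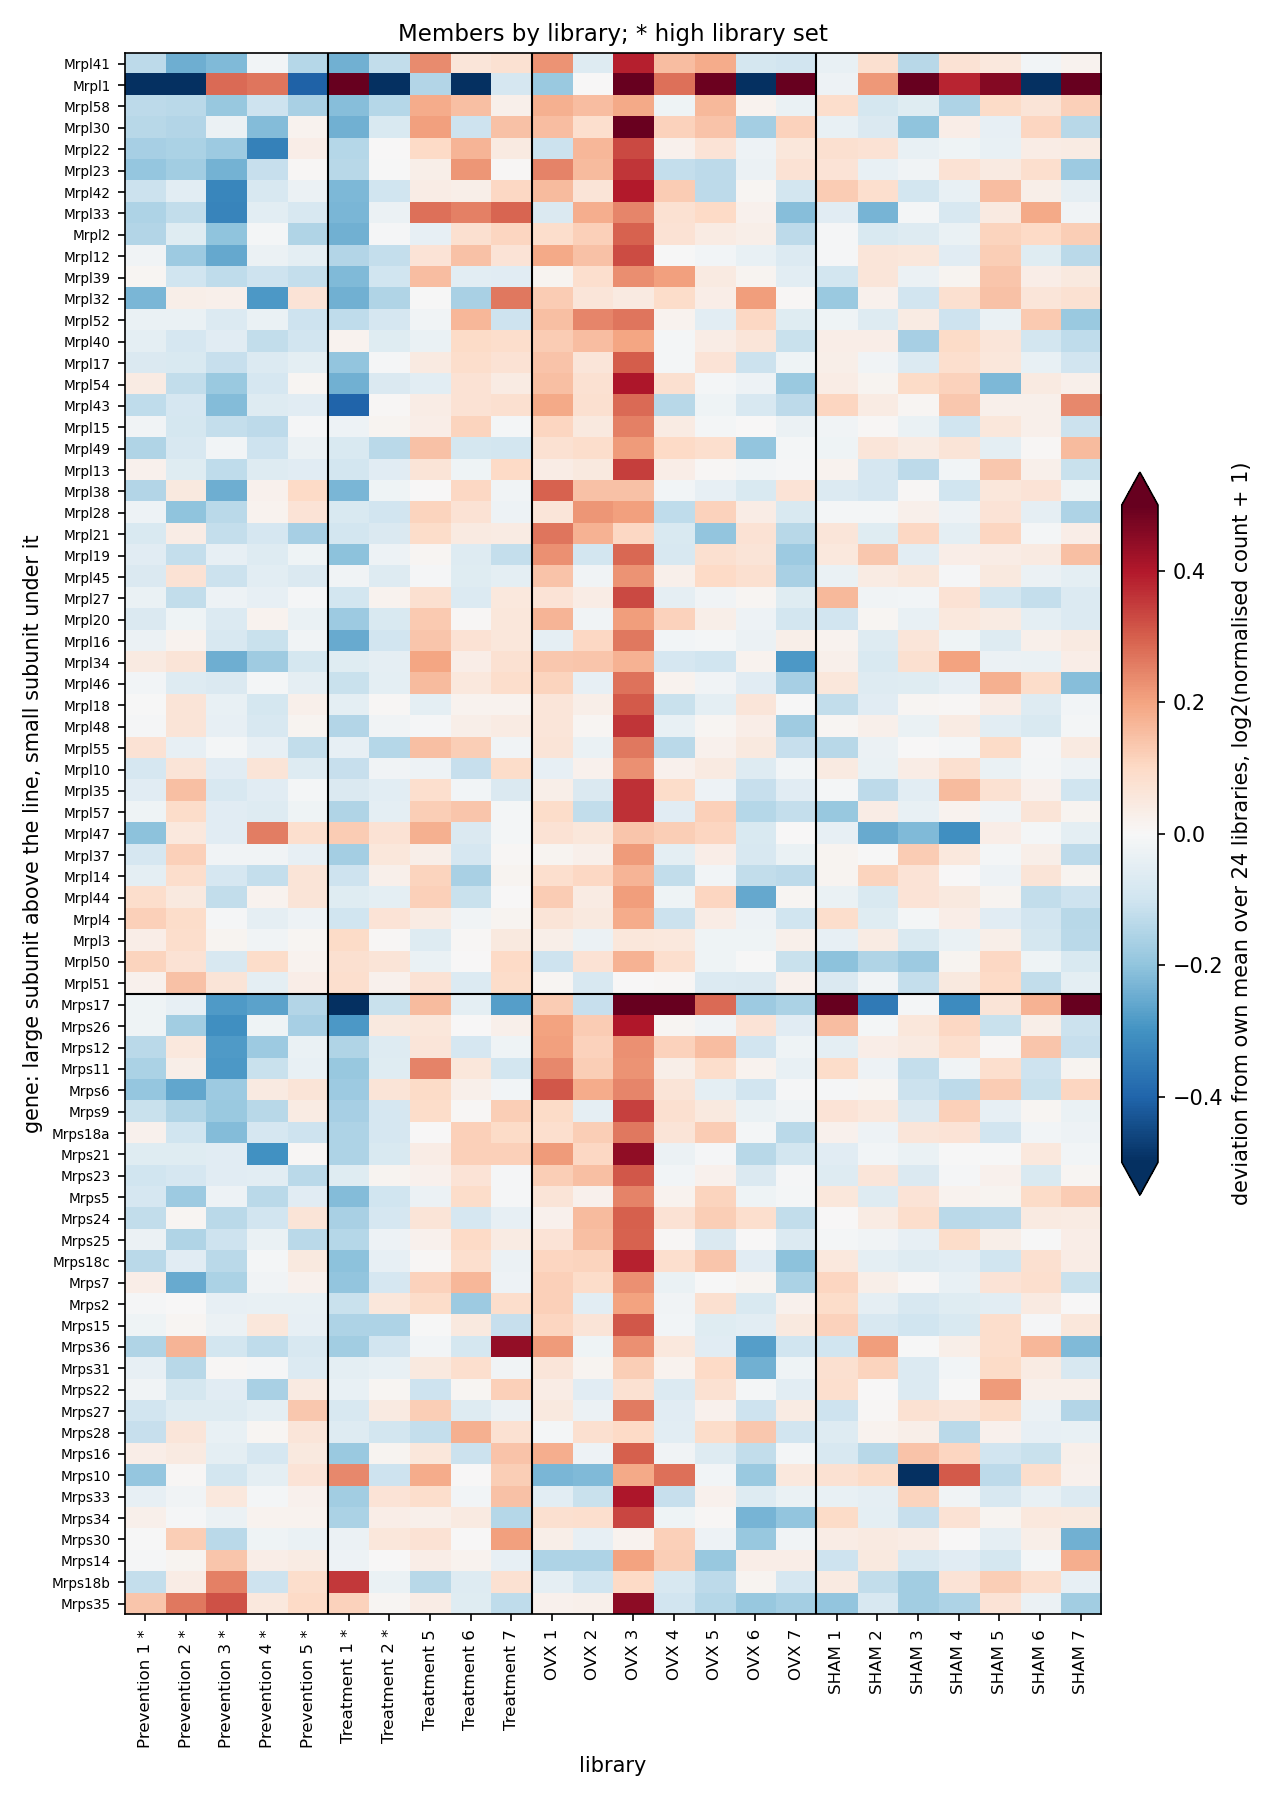
Deviation of each tested member (rows, 44 large subunit genes above the line and 29 small subunit genes under it, ordered by the change between Prevention and OVX) from its own mean over 24 libraries (columns, * for the high set), on the log2(normalised count + 1) scale with colours saturating at the ends of the bar. OVX 3 is above the mean throughout, and Treatment 1 is mostly under it.

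Within the Treatment group the members split by library set. The large subunit median was -0.12 and -0.049 in Treatment 1 and 2 of the high set, and 0.065, 0.029 and 0.041 in Treatment 5, 6 and 7 of the low set. For the small subunit it was -0.15 and -0.038 in Treatment 1 and 2, and 0.049, 0.011 and -0.0057 in Treatment 5, 6 and 7. Both high-set libraries lay below all 3 low-set libraries in 33 of the 73 members, 22 large and 11 small, and above them in 0. Over all tested genes these shares were 14.3% and 14%. The split was also seen in 2 larger families. Cytosolic ribosomal protein genes had medians of -0.055 and -0.11 in Treatment 1 and 2, and 0.084, 0.085 and 0.040 in Treatment 5, 6 and 7. For nuclear genes of oxidative phosphorylation they were -0.17 and -0.055, and 0.10, 0.051 and 0.028, in the same order. The 5 Prevention medians, all of the high set, ran from -0.079 to -0.026 for the large subunit and from -0.063 to 0.018 for the small one. The labels do not say what the sets are.

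**Figure D2:**
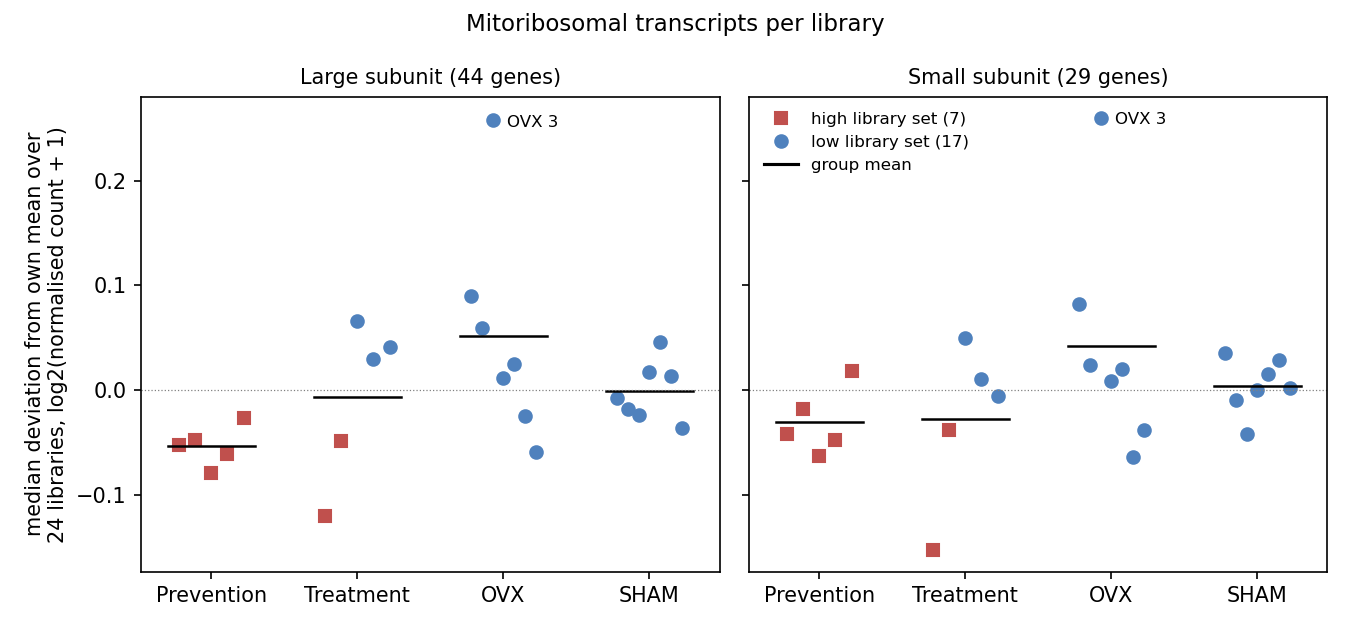
Median deviation of the 44 large (left) and 29 small (right) subunit genes in each library, on the log2(normalised count + 1) scale, by group. Squares are the 7 libraries of the high set, circles the 17 of the low set and lines the group means; of the 2 Treatment squares, Treatment 1 lies below all Prevention squares and Treatment 2 among them, and OVX 3 stands at 0.26 in both panels.

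Prevention against OVX asks how the genes stand when E2 was given from the time of ovary removal. Most members of either subunit were lower in Prevention, by small amounts. The large subunit had a median change of -0.11 (median percent change -7.62%), with 40 of 44 genes below 0, and the small subunit one of -0.064 (-4.35%), with 25 of 29 below 0. Over all tested genes 49.7% were below 0 and the median was 0.00081. No member passed limma's moderated test at an adjusted p of 0.05, in a comparison where 49 genes, or 0.304% of those tested, did. At an unadjusted p under 0.05, 17 large and 11 small subunit genes were lower and 1 small subunit gene, Mrps35, was higher, against 8.56% and 10.1% of tested genes. In bulk tissue, fewer cells of a type and less RNA per cell cannot be told apart.

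Mrpl58, a peptidyl-tRNA hydrolase built into the large subunit that frees chains from stalled mitoribosomes, had the smallest adjusted p. Its normalised counts in Prevention were 649, 648, 624, 661 and 635, against 695 to 811 with a median of 792 in OVX. Every Prevention library lay below every OVX library, as in 0.664% of tested genes. Mrpl58 averaged 643 ± 14.3 in Prevention and 760 ± 52.0 in OVX (SD, n = 5 and 7), a change of -0.24 (SE 0.068, adjusted p = 0.0794). In Treatment it was 614 and 644 in the high-set libraries and 809, 790 and 723 in the low-set ones, so Treatment 1 lay below the Prevention range, Treatment 2 within it and the low-set libraries within the OVX range. SHAM ran from 639 to 773.

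Mrps5, a homologue of the bacterial protein at the entry of the messenger RNA channel, was the other member whose groups did not overlap. It had 1291, 1205, 1342, 1246 and 1315 normalised counts in Prevention, against 1346 to 1624 with a median of 1389 in OVX. The gap between the groups was narrow, and the change was -0.16 (SE 0.052, adjusted p = 0.111). Treatment libraries of the high set again lay lower, at 1176 and 1278, than those of the low set, at 1338, 1456 and 1362.

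Mrps12, a protein of the decoding centre known in bacteria for mutations that give streptomycin resistance, had 465, 530, 419, 451 and 499 normalised counts in Prevention and 478 to 599, median 554, in OVX. Its groups overlapped, with a change of -0.22 (SE 0.065, adjusted p = 0.0894). Mrpl22, which lines the exit tunnel, had 376, 378, 371, 333 and 431 in Prevention and 391 to 530, median 439, in OVX. A single Prevention library reached into the OVX range, and the change was -0.23 (SE 0.071, adjusted p = 0.0906). Mrps26, a small subunit protein without a bacterial counterpart, averaged 1210 ± 100 in Prevention and 1436 ± 165 in OVX, with a change of -0.24 (adjusted p = 0.0976). Mrpl41, likewise a mitochondrial addition but in the large subunit, averaged 890 ± 56.3 in Prevention and 1065 ± 140 in OVX, with a change of -0.25 (adjusted p = 0.110).

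**Figure D3:**
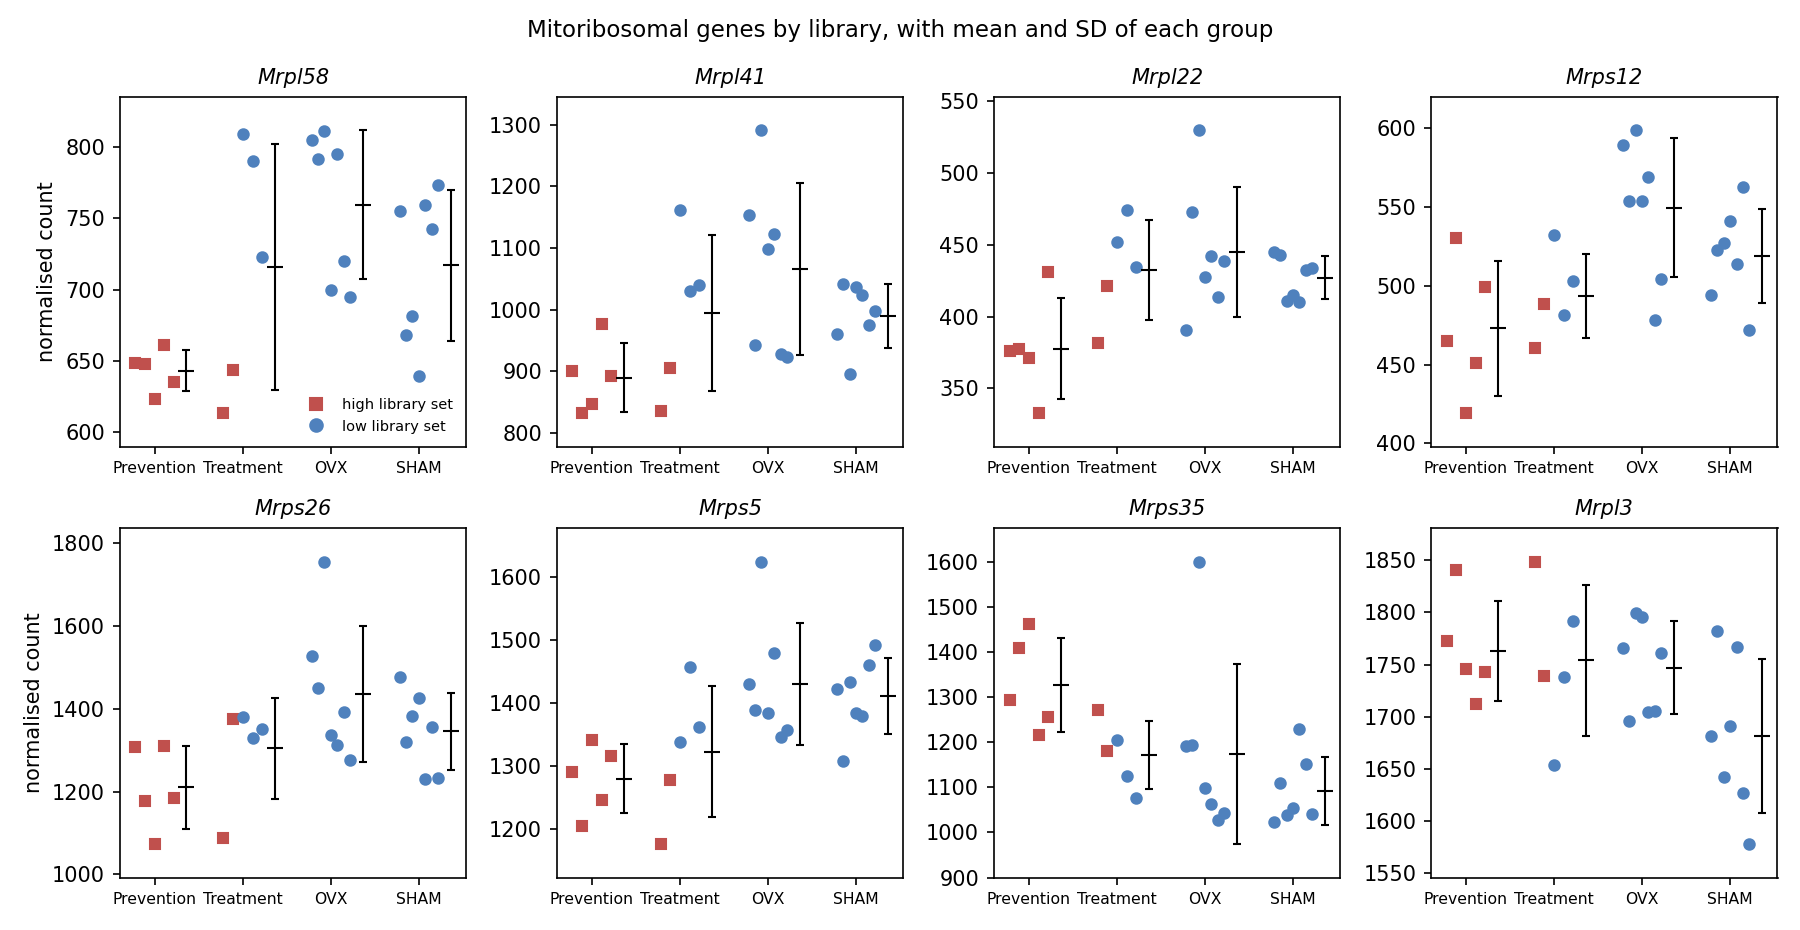
Normalised counts of 8 members in every library by group (squares, high set; circles, low set), with the mean and SD of each group; the axes do not start at 0. Mrpl58 shows the Treatment libraries divided by set, Mrps35 runs higher in Prevention, and Mrpl3 is nearly level.

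Mrps35 went the other way. This small subunit addition had 1293, 1409, 1463, 1216 and 1256 normalised counts in Prevention, against 1028 to 1600 with a median of 1098 in OVX and 1024 to 1229 with a median of 1054 in SHAM. All OVX libraries but OVX 3, at 1600, lay below every Prevention library. The change was 0.19 against OVX (SE 0.083, adjusted p = 0.223) and 0.28 against SHAM (SE 0.083, adjusted p = 0.128). No other member's change in Prevention against OVX was as far above 0. Without OVX 3 the comparison with SHAM gave an adjusted p of 0.0314, in a fit where 135 of all tested genes passed, against 57 with all libraries, and with a term for the library sets a change of 0.17 and an adjusted p of 0.949.

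The other members with well-known roles spread around the median. Mrpl12, of the stalk that recruits translation factors and a partner of the mitochondrial RNA polymerase, had a change of -0.18 (SE 0.069, adjusted p = 0.157), and Mrpl10 at the base of the stalk -0.044. Mrpl44, related to RNase III, and Mrpl37 had -0.012 and -0.025. In the small subunit Mrps22, Mrps16, Mrps2 and Mrps34, whose human genes are mutated in mitochondrial disease, had -0.057, -0.035, -0.064 and -0.0019, and Mrps27, a pentatricopeptide repeat protein, -0.054. The paralogues Mrps18a, Mrps18b and Mrps18c had -0.17, 0.076 and -0.14. Some small subunit names mislead: structures place Mrps18a and Mrps30 (0.0024) in the large subunit, while Mrps36 (-0.061) is now known as Kgd4, a part of the oxoglutarate dehydrogenase complex. With the subunits drawn by structure the medians were -0.11 and -0.087. Members numbered after bacterial proteins and later additions had medians of -0.11 (24 genes) and -0.11 (20 genes) in the large subunit, and -0.15 (16 genes) and -0.057 (13 genes) in the small one. Members with the YY1 motif had a median of -0.056 (14 genes) and those without it -0.14 (44 genes). For the ETS motif the medians were -0.092 (19 genes) and -0.12 (39 genes), and for the NRF1 motif -0.10 (9 genes) and -0.12 (49 genes). YY1 was the widest of these differences, all given as descriptions only.

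Every Prevention library belongs to the high set and every OVX and SHAM library to the low set, so E2 from the start and library set cannot be told apart in these comparisons. A fit with the set as a term rests on the split inside Treatment. It gave medians of 0.021 for the large and 0.020 for the small subunit in Prevention against OVX, with 46 of 73 members above 0 and 0 at an unadjusted p under 0.05. The changes of Mrpl58, Mrpl41 and Mrps5 turned to 0.061, 0.055 and 0.017. Without OVX 3 the main medians were -0.074 and -0.044, with 55 of 73 members below 0. Without the 5 libraries with thalamic markers 62 of 73 were below 0, and 0 of all tested genes passed. Without OVX 7, where the library medians were -0.060 and -0.039, Mrpl58 (adjusted p = 0.0451) and Mrps18a (adjusted p = 0.0427) passed, in a fit where 481 of the 16119 tested genes did, against 49 with all libraries.

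Treatment against OVX compares E2 begun 3 weeks after ovary removal with vehicle alone. The medians were -0.058 (38 of 44 below 0) for the large and -0.051 (21 of 29) for the small subunit, against 50.6% of tested genes below 0. No member passed, and neither did any other gene (0%). At an unadjusted p under 0.05, 5 members, Mrps24, Mrps12, Mrps15, Mrps5 and Mrpl39, were lower (background 3.09%) and 0 were higher (background 4.1%). Mrps24 averaged 626 ± 36.8 in Treatment and 697 ± 62.2 in OVX, a change of -0.15 (SE 0.062, adjusted p = 0.684). Among the 3 Treatment and 7 OVX libraries of the low set alone the medians were -0.015 and -0.0031, and without OVX 3 they were -0.020 and -0.016 over all libraries.

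OVX against SHAM compares ovary removal with intact ovaries, both under vehicle, with all libraries in the low set. Members ran slightly higher in OVX, with a median of 0.054 (39 of 44 above 0) for the large subunit and 0.052 (23 of 29) for the small one, against 51.7% of tested genes. None passed, as for all tested genes (0%). In the large subunit 3 members were higher at an unadjusted p under 0.05 (background 2.88%), Mrpl47, Mrpl30 and Mrpl52, and 0 members were lower (background 3.37%). Mrpl47 ran from 394 to 458 normalised counts, median 437, in OVX and from 336 to 425, median 402, in SHAM, a change of 0.18 (SE 0.068, adjusted p = 0.795). The ranges overlapped. Library OVX 3 carried much of the pattern: without it the medians were 0.022 and 0.0065, 44 of 73 members were above 0 and 1 was at an unadjusted p under 0.05.

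Prevention against SHAM sets early E2 after ovary removal beside intact ovaries. The medians were -0.049 (35 of 44 below 0) and -0.067 (22 of 29), against 49.1% of tested genes below 0. No member passed, against 0.354% of tested genes. At an unadjusted p under 0.05, 6 were lower (background 5.85%) and Mrps35 was higher (7.42%). Mrpl43, a large subunit addition, was the one member whose groups did not overlap, at 1021, 1051, 958, 1065 and 1071 normalised counts in Prevention and 1122 to 1315, median 1146, in SHAM (0.912% of tested genes). Its change was -0.19 (SE 0.079, adjusted p = 0.280). With the set as a term the medians were 0.068 and 0.074. Without the 5 libraries with thalamic markers they were -0.035 and -0.033.

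Treatment against SHAM gave medians of 0.0060 (24 of 44 above 0) and -0.0020 (14 of 29 above 0), against 51.6% of tested genes. No member passed (background 0.0062%), and Mrpl47 was the one member at an unadjusted p under 0.05, at 434 ± 30.6 in Treatment and 384 ± 35.5 in SHAM (background 3.29% for higher and 2.8% for lower). In the low set alone the medians were 0.050 and 0.043, with 56 of 73 members above 0. Leaving out 1 library at a time moved the medians between -0.019 (without Treatment 5) and 0.036 (without Treatment 1) for the large subunit and between -0.022 (without Treatment 7) and 0.023 (without Treatment 1) for the small one. Treatment against Prevention, late against early E2, gave medians of 0.030 (32 of 44 above 0) and 0.055 (21 of 29), against 48.9% of tested genes. No member and no other gene (0%) passed. Mrpl33 had 498, 571, 707, 695 and 713 normalised counts in Treatment, the first 2 from the high set, and 524, 536, 464, 562 and 552 in Prevention, with a change of 0.26 (SE 0.098, adjusted p = 0.789). Mrpl33 and Mrpl22 were the 2 members at an unadjusted p under 0.05 (both higher, background 2.76%, against 2.62% for lower). Within the 7 high-set libraries, 2 of Treatment and 5 of Prevention, the medians turned to -0.031 and -0.020.

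**Figure D4:**
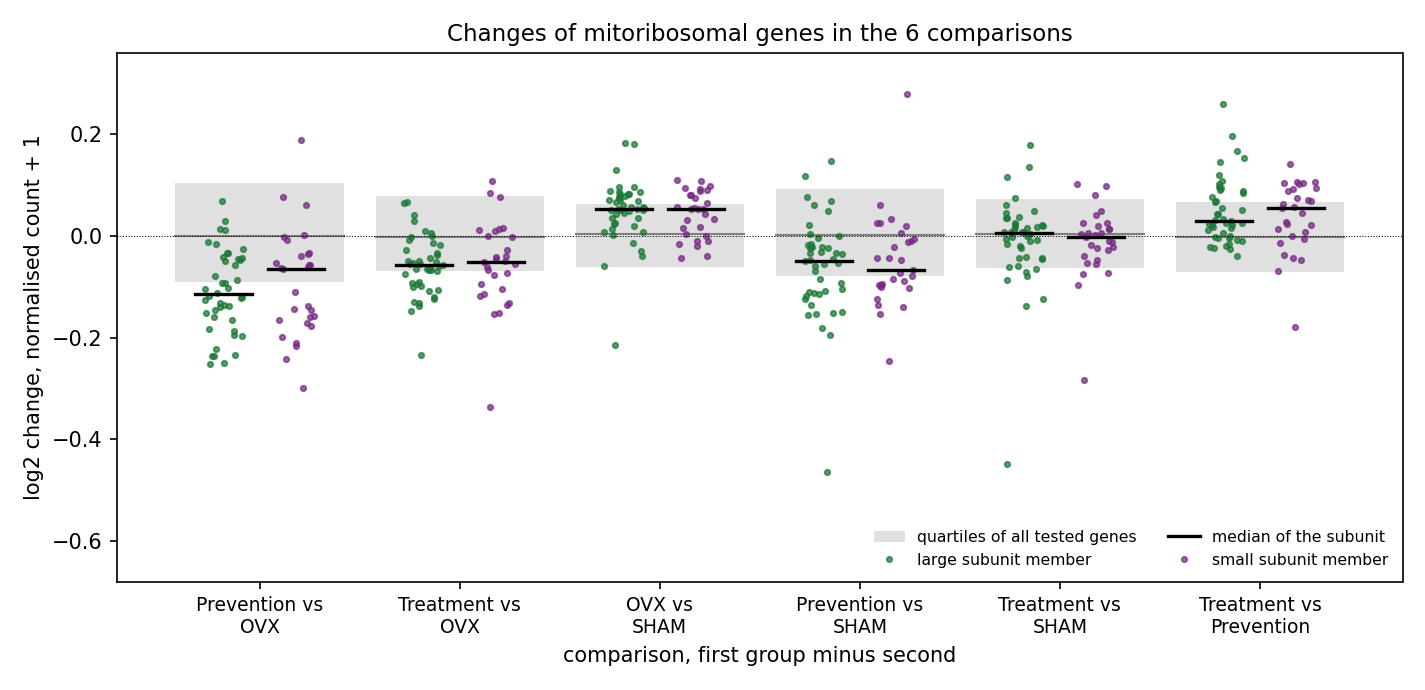
Log2 change of each tested member (dots, jittered sideways; large subunit left, small subunit right) in the 6 comparisons, first group minus second, with subunit medians as black lines and the quartiles and median of all tested genes in grey. The large subunit median lies furthest from 0 in Prevention against OVX, at -0.11, and the small subunit median in Prevention against SHAM, at -0.067, beside -0.064 in Prevention against OVX; both lie nearest to 0 in Treatment against SHAM.

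Genes that work with the mitoribosome were set beside it. Of 6 mitoribosomal proteins and partners with other names, 5 were below 0 in Prevention against OVX, with a median of -0.083. Among them Dap3, the GTP-binding protein of the small subunit, had -0.021, Ptcd3 0.017 and Aurkaip1 -0.095 (SE 0.031, adjusted p = 0.111). The 28 assembly factors had a median of -0.058 (19 below 0), the 14 translation factors -0.014 (7 below 0) and the 19 mitochondrial aminoacyl-tRNA synthetases -0.023 (11 below 0). Tufm, the elongation factor that brings in aminoacyl-tRNA, had -0.11 (adjusted p = 0.237), Gfm1, the translocation factor, 0.0070, and Lrpprc, which keeps mitochondrial messengers stable, 0.064. Tfam, the packaging protein of mitochondrial DNA, and Polrmt, the mitochondrial RNA polymerase, had -0.047 and -0.072. The 12 regulators of nuclear mitochondrial genes had a median of 0.087, with 7 above 0: Ppargc1a, the coactivator of mitochondrial biogenesis, had 0.23 (adjusted p = 0.189), Gabpa 0.14 and Nrf1 -0.037. None of these genes passed the test in any of the 6 comparisons.

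Larger families were read in the same way. Cytosolic ribosomal protein genes had a median of -0.12 in Prevention against OVX (52 of 57 below 0, 1 past the test) and 0.090 in OVX against SHAM (55 of 57 above 0). Nuclear genes of oxidative phosphorylation had -0.091 (68 of 78 below 0) and 0.053 (73 of 78 above 0). The 13 proteins encoded in mitochondrial DNA, the products of the mitoribosome, had a median of -0.012 in Prevention against OVX (7 of 13 below 0), with Mt-nd4l at 0.24 (SE 0.084, adjusted p = 0.132) and Mt-co2 at -0.17 (adjusted p = 0.366). The comparisons against OVX share the OVX libraries, OVX 3 included, and so are not independent of each other.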

How the data were processed

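Hippocampal RNA of 24 libraries was measured, in groups and with replicate numbers taken from the labels. Per the submitters' processing notes, kallisto 0.43 and DESeq2 made the deposited table of normalised counts, a signal per gene and library in which values are not whole. Genome build and annotation were not given in the sources used here. Column totals ran from 35.4 to 38.8 M, and reads per library were estimated as this total over the smallest value shared by at least 2 features, taken as that of 1 read. Only the spread between libraries gives the precision.

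Values were analysed as log2(normalised count + 1) with limma 3.58.1 in R 4.3.3, in 1 fit of 24 libraries with a mean per group, a mean-variance trend and Benjamini-Hochberg adjustment over 16119 features with a mean of at least 10, at a threshold of 0.05. The fit was tested on simulated data. Members, gene lists, tests and the split of libraries were chosen with earlier results of these data known. Named members were those with the 3 smallest p-values per subunit and comparison, the 3 widest and 3 narrowest spreads, and a list of genes with known roles. A ranking per kilobase of coding sequence was not made, since no coding lengths were used here, and levels of different genes are not compared. Mrpl46, outside this rule, was named for its promoter, and Mrps18a is in the list of roles.

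Alternatives were a pseudocount of 8, a minimum mean of 100 or none, quantile normalisation, the pair of groups alone, the replicate number as a block, a library set term by the widest gap, and leaving out each library. A term for the sets of 7 and 17, fits within them, leaving out the 5 libraries with thalamic markers, and subunits by structure were chosen after seeing the data. The labels do not say whether equal replicate numbers pair the libraries. Over 30 pairs the correlations of their deviations ran from -0.44 to 0.37, with a median of -0.12 and 8 over 0.1. These values cannot exclude shared handling. Promoters come from RefSeq for GRCr8, matched by symbol. Plots used matplotlib 3.10.9 under Python 3.11.15.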

Additional observations from a re-analysis of the deposited data

Results flagged for a closer look

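Over the 4 groups, 41 named members and the medians of both subunits gave 172 sets of values, of which 15, all of members, had a library far from the others by Dixon's test. Chance flags about 1 in 20 independent sets. Members ran together by library, so these sets are not independent and that rate cannot judge their number. Of the 15, 7 were OVX 3 as the highest OVX library, at 1524 normalised counts for Mrps15, 987 for Mrpl30, 1600 for Mrps35, 1316 for Mrps9, 1586 for Mrpl10, 1527 for Mrpl37 and 1226 for Mrps27. The next highest OVX libraries were at 1323, 779, 1193, 1110, 1396, 1349 and 1059 in the same order. Treatment 1 was the lowest Treatment library for Mrps26, at 1089 (next lowest 1329), and Mrpl43, at 844 (next lowest 1120), and Treatment 7 was the highest for Mrps36, at 1171 (next highest 854). In Prevention the highest library stood apart for Mrpl39 at 388 (Prevention 1), Mrpl45 at 1420 and Mrps36 at 971 (Prevention 2), and Mrps27 at 1123 (Prevention 5). In SHAM the lowest library was SHAM 7 for Mrps30, at 967.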

How the results depend on the processing

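With the library sets of 7 and 17 as a term, medians turned to 0.021 (large) and 0.020 (small) in Prevention against OVX and to 0.068 and 0.074 in Prevention against SHAM. In Treatment against Prevention the medians turned to -0.031 and -0.020 with that term and within the high set. The term reversed Mrpl41 (0.055), Mrpl58 (0.061) and Mrps5 (0.017) in Prevention against OVX, and Mrpl43 (0.065), Mrpl58 (0.14) and Mrps5 (0.035) in Prevention against SHAM. In Treatment against Prevention it reversed Mrpl58 (-0.033) and Mrps9 (-0.016). There the high set alone gives the same medians and changes by construction, since only Treatment spans both sets, so it is not a separate result. The cause of the reversals was not tested. Fitting the pair of groups alone, 1 member, Mrps35, passed in Prevention against SHAM (adjusted p = 0.0444), where 156 of all 16119 tested genes passed in place of 57. Leaving out 1 library at a time, members passing ran from 0 to 2 in Prevention against OVX and from 0 to 1 in Prevention against SHAM, and stayed at 0 in the other comparisons. The 2 came without OVX 7, where 481 of all tested genes passed in place of 49. The 1 came without OVX 3, a library of neither compared group, where 135 passed in place of 57. The medians then ran from -0.13 to -0.074 (large; the upper end without OVX 3) and from -0.11 (without OVX 6) to -0.044 (without OVX 3; small) in Prevention against OVX, from -0.078 to -0.020 and from -0.081 to -0.016 in Treatment against OVX (the upper ends without OVX 3), from 0.022 to 0.075 and from 0.0065 to 0.069 in OVX against SHAM (the lower ends without OVX 3), from -0.062 to -0.038 and from -0.084 to -0.051 in Prevention against SHAM, and from 0.016 to 0.066 and from 0.024 to 0.081 in Treatment against Prevention (the upper ends without Treatment 1). Of the alternative values for the 36 pairs of a member and a comparison chosen by p, 1271 kept direction and side of the threshold, 10 reversed and 3 newly passed. Many of these values could not reverse. Leaving out a library outside the 2 compared groups does not alter a change, nor does the set term in OVX against SHAM. The pairs were also picked by p in these same data, so the tally is no measure of robustness. The 10 count Mrpl58 and Mrps9 in Treatment against Prevention under both the set term and the high set. Genes passing among all tested in Prevention against OVX were 49, against 38 without a filter, 97 at a mean of at least 100 and 56 after quantile normalisation. They were 5 with the pair of groups alone, 12 without OVX 3, 481 without OVX 7 and 25 with the widest-gap term. With the term for the sets of 7 and 17, or without the thalamic libraries, 0 passed.

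With the replicate number as a block, 0 members passed in any comparison, the Prevention against OVX medians were -0.12 and -0.081, and 3 of all tested genes passed in place of 49. Since the labels do not say that the numbers pair the libraries, this block is given once. The widest gap in LOC257642 parts only 2 libraries, Prevention 3 and Treatment 1, so no fit within the upper part was run. With this gap as a term the medians were -0.093 and -0.057 in Prevention against OVX. In Prevention against SHAM they were -0.035 and -0.057, and in Treatment against Prevention 0.030 and 0.055. Within the libraries below the gap, Prevention against OVX gave -0.10 and -0.071, with 62 of 73 members below 0. Depth per gene is unknown, and Mrpl1 and Mrps21l are too low for small changes to be read.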
